A study of Mus musculus with 11 samples.

Results

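The selectins and vascular adhesion molecules described here are 9 genes, chosen by their symbol in a table of 45777 genes: *Selp*, *Sele*, *Selplg*, *Icam1*, *Vcam1*, *Madcam1*, *Pecam1*, *Cdh5* and *Spn*. All 9 were found. RNA sequencing was performed on skin and small intestine (SI) of BALB/c mice aged 8 to 10 weeks, female or male, that had been shaved and treated daily on the back and right ear with 62.5 mg of cream. The controls received Vaseline as vehicle, and the treated mice received cream with 5% imiquimod (IMQ), which activates TLR7 and produces a dermatitis resembling psoriasis. Per the annotation of the samples, treatment lasted 5 to 8 days, whereas the study's methods give a shorter upper limit and name the back alone. Neither gives the days for each mouse. There were 3 control and 3 IMQ-treated skin libraries and 3 control and 2 IMQ-treated SI libraries, numbered 1 to 11, and which of them came from the same mouse is not stated. Nothing in the annotation names the extraction or sequencing batch.

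Total counts per library were 44995414 to 58526384. Within groups, the chi-square statistic of each of the 10 library pairs was 34.0 to 231 times its degrees of freedom, so every library was used as a separate sample. The summed level of 6 keratinocyte markers was 11320 to 33862 CPM (counts relative to library size) in skin and 1.29 to 3.72 CPM in SI. The summed level of 10 intestinal epithelial markers was 19497 to 42129 CPM in SI and 13.2 to 354 CPM in skin. The highest skin value belonged to control replicate 2, in which the median marker reached 1.08% of its mean in control SI. The same library had 10.3 CPM of hair follicle markers, close to the 8.67 to 13.7 CPM of IMQ-treated skin, whereas the other controls had 1443 and 2241 CPM. Results of the 9 genes in skin are therefore given with and without control replicate 2 where the call depends on it. Its part in each result was not tested. For all other genes only the fit with this library is given, although their skin calls may depend on it. Without it, 2521 genes were called in skin, against 1382 with it, both in edgeR.

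Leukocytes leave the blood in steps. They first roll on selectins displayed by activated endothelium, then adhere firmly when their integrins bind immunoglobulin-type adhesion molecules, and finally pass between endothelial cells whose contacts are built by VE-cadherin and PECAM-1. P-selectin (*Selp*) is stored in endothelial cells and platelets, and E-selectin (*Sele*) is made by endothelium in response to inflammatory cytokines. PSGL-1 (*Selplg*) is the main ligand of P-selectin on leukocytes, and CD43 (*Spn*) is another mucin-like leukocyte surface protein. ICAM-1 binds integrins of the beta-2 family, VCAM-1 binds the alpha-4 beta-1 integrin, and MAdCAM-1, the adhesion molecule of mucosal venules, binds the alpha-4 beta-7 integrin.

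*Sele*, at chr1:164039614-164058487, and *Selp*, at chr1:164115264-164150026, lie close together on the same chromosome. *Icam1* lies at chr9:21015940-21028814 and *Madcam1* at chr10:79664559-79668542. *Selplg* lies at chr5:113817798-113832528, *Spn* at chr7:127123637-127145552, *Vcam1* at chr3:116110020-116129688, *Cdh5* at chr8:104101613-104144504 and *Pecam1* at chr11:106654213-106715281. All are positions of mm10 (GRCm38). RefSeq promoters (GRCm38.p6; 250 bases before and 50 bases from the start site) were at hand for 5 members, and 4 of them are shown because their response differed most between the tissues or because they are selectins. The windows are chr1:164115014-164115313 (plus strand) for *Selp*, chr1:164047984-164048283 (plus) for *Sele*, chr9:21015690-21015989 (plus) for *Icam1* and chr10:79664309-79664608 (plus) for *Madcam1*. The *Sele* window lies inside the *Sele* interval given above, so its start site is not the first base of that interval. The windows of *Selp*, *Icam1* and *Madcam1* span the first base of their intervals. Capitals mark the letters TATAAA or a match on either strand to the consensus of NF-kappaB, GGGRNNYYCC (R is A or G, Y is C or T, N is any base). Sites that depart from this consensus were not searched, so a window without a match may still hold one.
Selp: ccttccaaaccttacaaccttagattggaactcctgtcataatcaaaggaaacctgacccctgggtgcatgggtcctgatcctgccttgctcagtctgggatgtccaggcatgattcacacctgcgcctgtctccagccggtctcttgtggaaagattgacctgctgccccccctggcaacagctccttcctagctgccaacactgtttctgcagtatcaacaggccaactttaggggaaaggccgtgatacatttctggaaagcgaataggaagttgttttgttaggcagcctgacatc
Sele: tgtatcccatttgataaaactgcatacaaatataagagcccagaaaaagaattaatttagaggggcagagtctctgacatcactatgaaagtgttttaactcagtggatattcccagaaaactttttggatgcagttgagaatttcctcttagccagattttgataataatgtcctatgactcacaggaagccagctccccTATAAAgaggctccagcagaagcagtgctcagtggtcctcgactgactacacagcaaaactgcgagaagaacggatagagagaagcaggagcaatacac
Icam1: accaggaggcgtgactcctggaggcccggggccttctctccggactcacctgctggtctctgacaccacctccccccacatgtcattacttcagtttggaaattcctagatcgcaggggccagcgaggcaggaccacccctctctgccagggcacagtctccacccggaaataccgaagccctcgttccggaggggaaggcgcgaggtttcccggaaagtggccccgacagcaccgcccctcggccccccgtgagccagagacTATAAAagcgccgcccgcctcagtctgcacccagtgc
Madcam1: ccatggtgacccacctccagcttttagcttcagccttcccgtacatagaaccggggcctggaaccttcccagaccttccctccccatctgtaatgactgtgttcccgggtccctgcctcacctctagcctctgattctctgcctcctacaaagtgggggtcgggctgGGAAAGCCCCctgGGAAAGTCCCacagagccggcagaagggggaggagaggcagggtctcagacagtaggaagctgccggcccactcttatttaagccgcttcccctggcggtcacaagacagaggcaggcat
TATAAA was found once in *Sele*, at positions -49 to -44 from the start site, and once in *Icam1*, at positions 14 to 19. The NF-kappaB consensus matched the opposite strand of the *Madcam1* window at positions -83 to -74 and -70 to -61. Neither motif was found in the windows of *Selp* and *Spn*. Over all 32851 promoters, 8.46% held the NF-kappaB consensus and 13.6% held TATAAA, so these matches describe the letters of the windows only.

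The 9 genes were first ordered by level, using the FPKM of the deposited table (fragments scaled by transcript length and library size), which can be compared between genes. In control skin, *Pecam1* stood first at 16.5 ± 2.05 FPKM (SD, n = 3), followed by *Icam1* at 13.0 ± 0.812, *Selplg* at 9.74 ± 2.16 and *Cdh5* at 9.31 ± 1.47. *Spn* (2.96 ± 0.964), *Vcam1* (2.17 ± 0.203), *Selp* (1.72 ± 0.205) and *Sele* (1.27 ± 0.328) formed a lower group, and *Madcam1* was nearly silent at 0.164 ± 0.0901. The neighbours *Selplg* and *Cdh5*, *Spn* and *Vcam1*, and *Selp* and *Sele* overlapped in their libraries.

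In control SI, *Pecam1* was again first at 9.93 ± 1.25 FPKM (n = 3) and *Selplg* second at 5.35 ± 0.805. From there to *Spn* (1.97 ± 0.446) each neighbour overlapped the next, in the order *Selplg*, *Cdh5*, *Icam1*, *Vcam1*, *Madcam1* and *Spn*, with *Madcam1* at 2.34 ± 0.646. *Selp* followed at 0.669 ± 0.199, and *Sele* was close to 0 at 0.0108 ± 0.0186. After IMQ, *Pecam1* still had the highest FPKM of the 9 in skin (35.8 ± 4.20, n = 3) and in SI (34.7 ± 4.26, n = 2). *Selp* and *Sele* had a higher FPKM in every skin library than in any SI library, and *Madcam1* had a higher FPKM in every SI library than in any skin library.

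**Figure D1:**
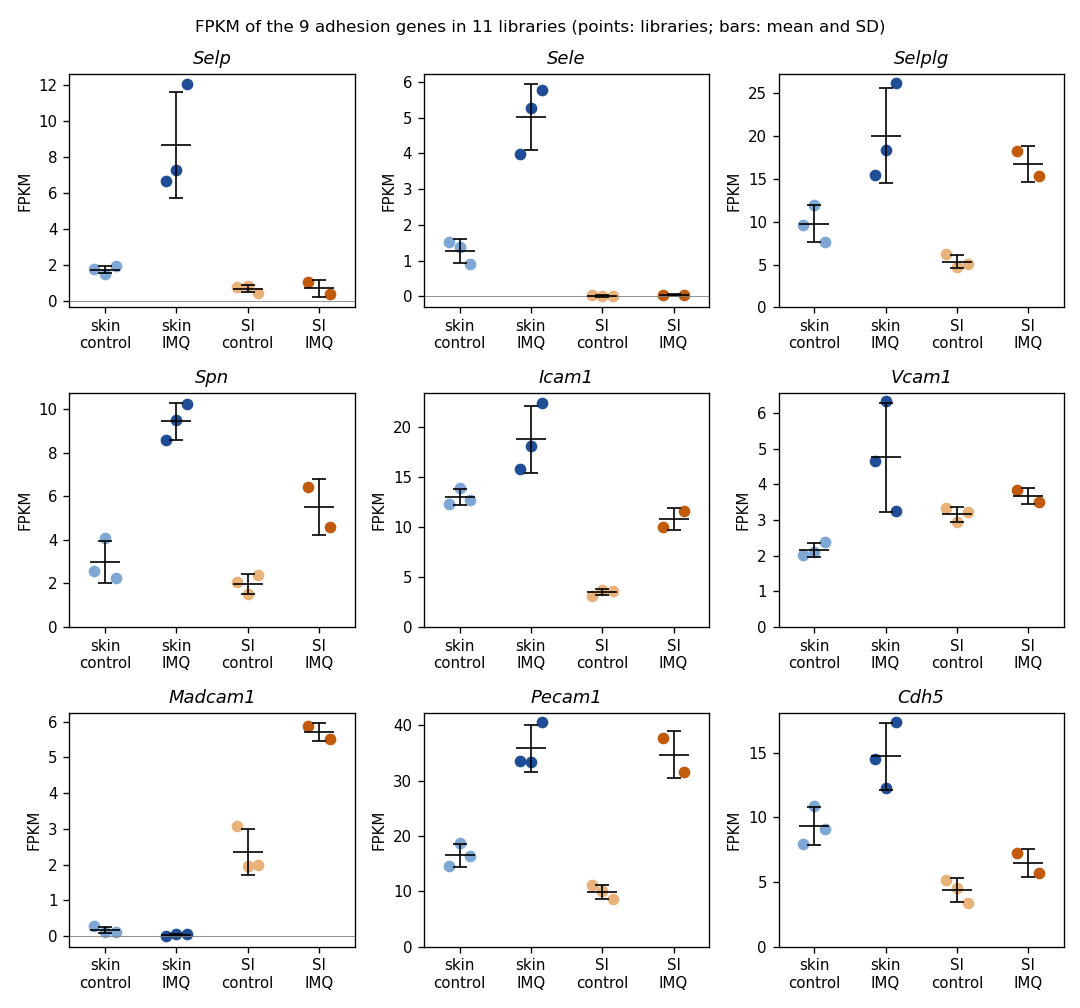
FPKM of each of the 9 genes (vertical axis, from 0) in the 4 groups (horizontal axis), with points for libraries and bars for the mean and SD. *Selp* and *Sele* stand out in IMQ-treated skin, at 8.64 and 5.01 FPKM on average, and *Madcam1* in IMQ-treated SI, at 5.70 FPKM.

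In the skin, both vascular selectins rose with IMQ, together with *Spn*, *Vcam1* and *Pecam1*. These were 5 of the 8 members tested, called at an adjusted p of 0.05 (edgeR, quasi-likelihood, Benjamini-Hochberg over 20512 genes), and the Wald test of DESeq2 called all 8. Over all genes tested, edgeR called 4.05% higher and 2.69% lower, and no member was lower among those tested. DESeq2 called 3030 of the 20512 genes in either direction. The median log2 fold change of the 8 members was 1.17, against -0.01 over all genes. Per-library values are given as normalized counts, brought to a common library size within each tissue, and a fold change is IMQ-treated against control. In bulk tissue, more cells of a type and more RNA per cell cannot be told apart.

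*Selp* had 313, 290.1 and 340.0 normalized counts in the control skins and 1309, 1369 and 2212 in the IMQ-treated skins. The lowest treated library was far above the highest control. The change was 5.18-fold (log2 2.37, SE 0.23, adjusted p = 0.00432 in edgeR), and it was called without each of the 6 libraries.

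*Sele* had 273, 267 and 154 normalized counts in controls and 775, 951 and 1066 in treated skins, again without overlap. It rose 4.02-fold (log2 2.01, SE 0.26, adjusted p = 0.00996 in edgeR). Without IMQ replicate 5 the adjusted p was 0.0531 in edgeR, with the log2 fold change at 1.99. *Selp* is also a gene of platelets, and the 9 platelet markers summed to 24.8 to 34.0 CPM in control and 35.6 to 52.5 CPM in treated skin, with *Gp6* at 0 in every skin library. Of the 3 platelet markers tested, *Gp1bb*, a subunit of the platelet von Willebrand factor receptor, rose (log2 0.92, adjusted p = 0.0279 in edgeR). Their part in the *Selp* result was not tested.

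Of the genes carried by leukocytes, *Spn* had 527, 902 and 462 normalized counts in controls and 1812, 2084 and 2303 in treated skins, with no overlap, a 3.28-fold rise (log2 1.71, SE 0.27, adjusted p = 0.0164 in edgeR). The highest control value was that of replicate 2, and without it the log2 fold change was 2.07 and the adjusted p 0.00284 in edgeR. The call was lost without control replicate 1 (adjusted p = 0.0748), IMQ replicate 5 (0.0711) or IMQ replicate 6 (0.0533), all in edgeR. *Selplg* had 1308, 1748 and 1029 normalized counts in controls and 2307, 2629 and 3653 in treated skins. Its 2.1-fold difference (log2 1.07, SE 0.25) missed the threshold at an adjusted p of 0.0504 in edgeR. It passed without control replicate 2 (0.0239 in edgeR). The 8 pan-leukocyte markers, which include neither gene, summed to 427 to 632 CPM in control and 1143 to 1569 CPM in treated skin, and 7 of the 8 rose.

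Among the immunoglobulin-type genes, *Vcam1* had 358, 399 and 421 normalized counts in controls and 908, 1187 and 595 in treated skins. The 3 treated libraries lay above the controls but far from each other. The rise was 2.28-fold (log2 1.19, SE 0.26, adjusted p = 0.0426 in edgeR). The call was lost without control replicate 1 (adjusted p = 0.150), control replicate 2 (0.0587), control replicate 3 (0.0855), IMQ replicate 4 (0.122) or IMQ replicate 5 (0.143), each in edgeR. It was also lost without a filter in edgeR (0.0532) and with limma on log2(FPKM + 0.01) (0.0620) or log2(FPKM + 1) (0.0918). *Icam1* had 1663, 2012 and 1693 normalized counts in controls and 2337, 2569 and 3096 in treated skins, a difference of 0.58 on the log2 scale (SE 0.14, adjusted p = 0.0638 in edgeR). Without control replicate 2 its adjusted p was 0.0370 in edgeR. *Madcam1* had raw counts of 19, 9 and 8 in controls and 0, 6 and 4 in treated skins. It was not tested because of the 0, and without a filter it gave a log2 fold change of -1.66 (SE 0.94, adjusted p = 0.417 in edgeR), so at this depth no difference was detectable.

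Of the junction genes, *Pecam1* passed in skin and *Cdh5* did not, and whether they changed by different amounts was not tested. *Pecam1*, an adhesion molecule of endothelial contacts that platelets and many leukocytes also carry, had 2504.5, 3451 and 2784 normalized counts in controls and 6296, 6038 and 7163 in treated skins. It rose 2.23-fold (log2 1.16, SE 0.15, adjusted p = 0.00996 in edgeR), and was called without each of the 6 libraries. *Cdh5*, which encodes VE-cadherin and is made by endothelium, had 1663, 2437 and 1872 normalized counts in controls and 3319.9, 2687 and 3712 in treated skins. Its log2 difference of 0.70 (SE 0.19) had an adjusted p of 0.0730 in edgeR, and 0.0264 without control replicate 2. For all 8 members tested, every treated library lay above every control, as did 15.1% of all genes tested.

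**Figure D2:**
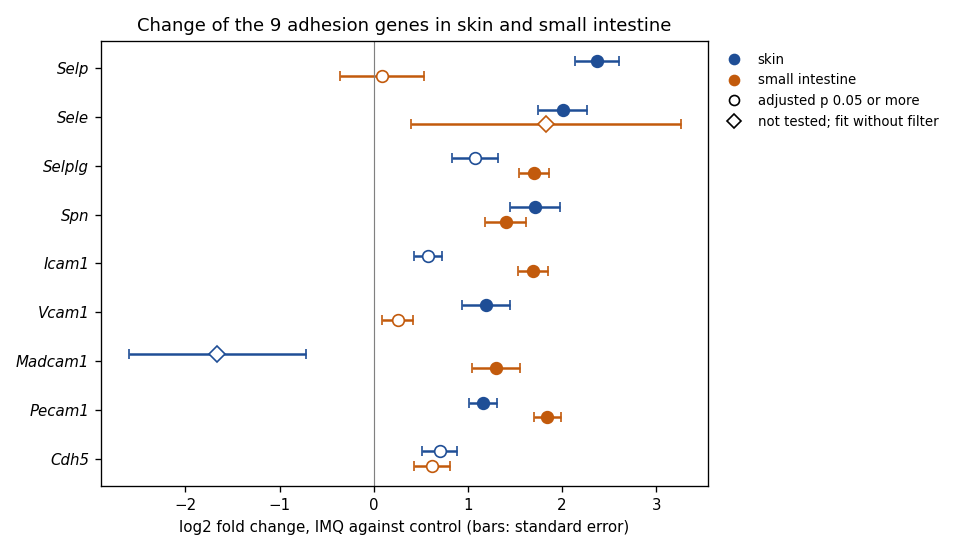
Log2 fold change of IMQ-treated against control libraries (horizontal axis) for each of the 9 genes, with standard errors, in skin and small intestine. Filled circles are genes called in edgeR, open circles are tested genes that were not called, and diamonds are genes that had a count of 0 in a library and come from the fit without a filter. *Selp* lies at 2.37 in skin and 0.09 in small intestine, and *Icam1* at 0.58 and 1.69.

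In the small intestine, to which no cream was applied, 5 of the 8 members tested rose. The set included *Icam1* and *Madcam1* but neither vascular selectin. The study measured imiquimod itself in the serum and intestine of mice treated on the skin. Its amount in the mice of these libraries is not given. Over all 19965 genes tested, 2.77% were called higher and 0.170% lower. The median log2 fold change of the 8 members was 1.35, against -0.02 over all genes. The group with IMQ had 2 libraries, so when either was left out, the remaining library was assumed to vary like the controls. *Icam1* was among the genes the study displayed for this tissue, and *Selp* and *Spn* among those it displayed for skin, so their direction is not independent evidence.

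*Icam1* had 476, 519 and 554 normalized counts in control SI and 1483 and 1851 after IMQ, without overlap. It rose 3.23-fold (log2 1.69, SE 0.16, adjusted p = 0.00157 in edgeR), and was called without each of the 5 libraries. *Madcam1* had 241, 145 and 169.9 normalized counts in controls and 459 and 454 after IMQ, a 2.46-fold rise (log2 1.30, SE 0.26, adjusted p = 0.0465 in edgeR). The *Madcam1* call was lost without control replicate 8 (adjusted p = 0.117), control replicate 9 (0.175), IMQ replicate 10 (0.221) or IMQ replicate 11 (0.215), each in edgeR, and with limma on log2(FPKM + 0.01) (0.0551) or log2(FPKM + 1) (0.0859). *Vcam1* had 666, 543 and 659 normalized counts in controls and 749 and 738 after IMQ. Both treated libraries were above the controls, but the difference of 0.26 on the log2 scale (SE 0.16) had an adjusted p of 0.638 in edgeR.

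*Pecam1* had 2162, 1797 and 1725 normalized counts in control SI and 7112 and 6469 after IMQ. With a 3.58-fold rise (log2 1.84, SE 0.14, adjusted p = 0.000668 in edgeR), it had the lowest adjusted p of the members in this tissue and was called without each of the 5 libraries. *Cdh5* had 1214, 989 and 803 normalized counts in controls and 1661 and 1408 after IMQ, with no overlap, and a log2 difference of 0.62 (SE 0.19, adjusted p = 0.212 in edgeR). Whether *Pecam1* and *Cdh5* changed by different amounts was not tested.

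*Selplg* had 918, 659 and 779 normalized counts in control SI and 2644 and 2462 after IMQ, a 3.25-fold rise (log2 1.70, SE 0.16, adjusted p = 0.00162 in edgeR) that was called without each of the 5 libraries. *Spn* had 476, 354 and 549.5 normalized counts in controls and 1349.9 and 1082 after IMQ, a 2.64-fold rise (log2 1.40, SE 0.22, adjusted p = 0.0166 in edgeR). The *Spn* call was lost without IMQ replicate 10 (adjusted p = 0.140) or IMQ replicate 11 (0.0565) in edgeR, and with limma on log2(FPKM + 1) (0.0790). The pan-leukocyte markers summed to 281 to 384 CPM in control and 1158 to 1226 CPM in IMQ-treated SI, and 7 of the 8 rose.

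The selectins did not pass in SI. *Selp* had 152, 153 and 92.4 normalized counts in controls and 203 and 76.5 after IMQ, so the 2 treated libraries lay on opposite sides of the controls. Its log2 fold change was 0.09 (SE 0.45, adjusted p = 0.974 in edgeR), and it was -0.78 without IMQ replicate 10. *Sele* had raw counts of 8, 0 and 0 in controls and 8 and 12 after IMQ. It was not tested, and without a filter its log2 fold change was 1.83 (SE 1.43, adjusted p = 0.752 in edgeR). The platelet markers summed to 28.3 to 48.4 CPM in control and 20.0 to 28.0 CPM in treated SI. Most of these sums came from *Gp1bb* alone, at 22.5 to 44.9 CPM in control and 15.6 to 24.4 CPM in treated SI. Of the 8 members tested, 7 had every treated library above every control, as did 15.1% of all genes tested.

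Whether IMQ changed a gene by a different amount in each tissue was asked with an interaction term in a model of all 11 libraries, where 7 members could be tested. Over all 18108 genes, 1.70% changed more toward higher values in SI than in skin and 0.856% less, and 1 member was called in each direction. *Icam1* rose more in SI, by 1.12 on the log2 scale (SE 0.22, adjusted p = 0.0280 in edgeR). *Selp* rose more in skin, with an interaction of -2.28 (SE 0.52, adjusted p = 0.0463 in edgeR). The remaining interactions did not pass: -0.93 for *Vcam1* (SE 0.33, adjusted p = 0.182), 0.69 for *Pecam1* (0.22, 0.140), 0.64 for *Selplg* (0.34, 0.383), -0.30 for *Spn* (0.39, 0.766) and -0.08 for *Cdh5* (0.30, 0.938), all in edgeR.

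Both called interactions were close to the threshold. In edgeR, *Selp* did not pass with filterByExpr (0.0660) or without a filter (0.0722), and *Icam1* did not pass without a filter (0.0523). The *Selp* call was lost for 9 of the 11 libraries when each was omitted, with adjusted p in edgeR of 0.103, 0.0610, 0.0671, 0.0907, 0.0798, 0.0785, 0.102, 0.0539 and 0.119 without skin control replicates 1 and 3, skin IMQ replicates 4, 5 and 6, SI control replicates 7, 8 and 9, and SI IMQ replicate 11. The *Icam1* call was lost for 7 of them, with adjusted p in edgeR of 0.0502, 0.0677, 0.0886, 0.0542, 0.0662, 0.0543 and 0.119 without skin control replicate 1, skin IMQ replicates 4 and 5, SI control replicates 7, 8 and 9, and SI IMQ replicate 11. The *Vcam1* interaction passed without skin IMQ replicate 6, at an adjusted p of 0.0476 in edgeR. The log2 interaction of *Selp* was between -3.14 and -1.77 in these fits, and that of *Icam1* between 0.93 and 1.29. *Madcam1* was not tested here, and without a filter its interaction was 2.95 (SE 0.78, adjusted p = 0.125 in edgeR).

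The tissues already differed without IMQ. In the model of all 11 libraries, control SI was compared with control skin, and 28.2% of the 18108 genes were higher and 28.8% lower in SI. Of the 7 members tested, *Vcam1* was higher in SI (log2 1.0, SE 0.22, adjusted p = 0.00257 in edgeR). *Icam1* (log2 -1.46, SE 0.15, adjusted p = 1.18e-05), *Cdh5* (-0.66, 0.20, 0.0151) and *Selp* (-0.91, 0.34, 0.0396) were lower in edgeR. *Selplg* (-0.46), *Pecam1* (-0.29) and *Spn* (-0.12) did not pass. The *Selp* difference was lost for 7 of the 11 libraries when each was omitted, with adjusted p in edgeR of 0.0722, 0.0529 and 0.0813 without skin control replicates 1, 2 and 3, 0.0501 without skin IMQ replicate 5, and 0.0552, 0.0550 and 0.140 without SI control replicates 7, 8 and 9. The *Cdh5* difference was lost without skin control replicate 2 (0.0552) or SI control replicate 9 (0.0625) in edgeR. *Selplg* passed without skin control replicate 3 (0.0309 in edgeR).

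The 2 genes left out by the filter differed most. *Sele* had raw counts of 302, 245 and 177 in control skin and 8, 0 and 0 in control SI, and without a filter its log2 difference was -6.03 (SE 0.72, adjusted p = 3.95e-05 in edgeR). *Madcam1* had raw counts of 19, 9 and 8 in control skin and 222, 144 and 184 in control SI, with a log2 difference of 4.35 (SE 0.49, adjusted p = 2.63e-05 in edgeR without a filter).

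To relate the members to the amount of endothelium or leukocyte transcripts, each was divided by the geometric mean CPM of 15 pan-endothelial or 8 pan-leukocyte markers, none of which is a member. *Madcam1* in skin and *Sele* in SI had a count of 0 and were left out. The endothelial markers summed to 338 to 403 CPM in control and 439 to 676 CPM in IMQ-treated skin, and to 186 to 318 and 340.1 to 365 CPM in control and treated SI. Differences between groups were tested by a two-sided exact permutation test, in which 3 against 3 libraries cannot give a p below 0.1 and 2 against 3 cannot give one below 0.2. In 16 such tests the lowest adjusted p was 0.32, and at these sample sizes none could pass.

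Per endothelial level, *Selp* was higher in treated skin by 1.77 on the log2 scale (control -1.50 ± 0.14, IMQ 0.27 ± 0.15, SD, n = 3 each, exact p = 0.1), with no overlap. *Sele* was higher by 1.48 (exact p = 0.1) and *Pecam1* by 0.60 (exact p = 0.1), also with no overlap. *Icam1* (0.01), *Cdh5* (0.14) and *Vcam1* (0.57) overlapped between the groups. Leaving out IMQ replicate 5 lowered the *Vcam1* value to 0.23, and leaving out IMQ replicate 6 raised it to 1.02. For *Cdh5* it ran from 0.06 (control replicate 3 or IMQ replicate 4 left out) to 0.28 (control replicate 2 left out). In SI, *Pecam1* (1.35), *Icam1* (1.18), *Madcam1* (0.83) and *Cdh5* (0.13) had no overlap (exact p = 0.2 each), whereas *Selp* (-0.55) and *Vcam1* (-0.24) overlapped. These ratios use endothelial markers only, and which cells made *Icam1* or *Pecam1* was not tested. Over the 11 libraries, with each tissue's mean removed, *Icam1* had a Pearson's r of 0.939 with *Pecam1*, 0.930 with *Selplg* and 0.800 with *Spn*. It was 0.723 with *Cdh5*, 0.692 with *Sele*, 0.413 with *Vcam1*, 0.275 with *Selp* and 0.202 with *Madcam1*. The libraries share treatment, so these coefficients do not tell cell types apart.

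Per leukocyte level, *Selplg* was lower in treated skin by 0.30 on the log2 scale with no overlap (exact p = 0.1) and differed by -0.02 in SI (exact p = 1). *Spn* differed by 0.39 in skin, with overlap (exact p = 0.2), and by -0.31 in SI, without overlap (exact p = 0.2).

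**Figure D3:**
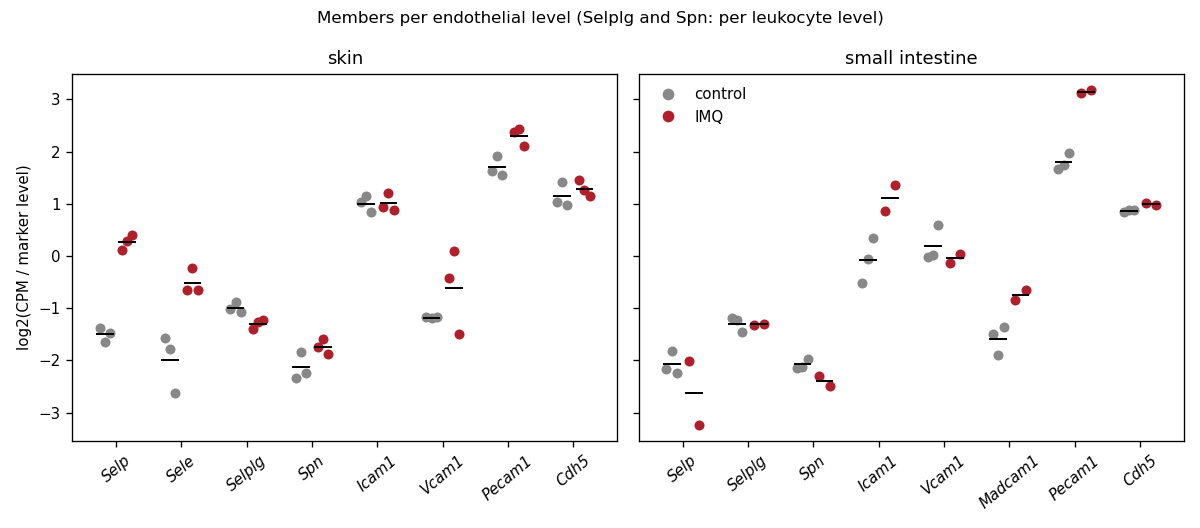
Log2 ratio of each gene's CPM to the geometric mean CPM of the endothelial markers, or of the leukocyte markers for *Selplg* and *Spn* (vertical axis), in skin (left) and small intestine (right). Points are libraries and lines are means. *Selp* is 1.77 higher in IMQ-treated skin, and *Icam1* differs by 0.01 in skin and 1.18 in small intestine.

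The partners of the members were examined through lists of genes, given by counts and medians. The lists of ligand carriers and of immunoglobulin-type and junction genes hold members themselves, so their counts are also given without them. Of 10 integrin chains that bind the members, 3 rose in skin and 6 in SI, with median log2 fold changes of 0.83 and 1.06. In skin the called chains were *Itgam* (log2 2.94, adjusted p = 0.00321), *Itgal* (2.51, 0.00513) and *Itgb2* (1.86, 0.00736), the chains that form the ICAM-1 receptors, in edgeR. In SI they were *Itgad* (5.10), *Itgb2* (3.43), *Itgax* (2.82), *Itgam* (1.88), *Itgal* (1.25) and *Itga4* (0.88), with adjusted p in edgeR from 0.000153 to 0.00682. *Itgb7*, the beta chain of the MAdCAM-1 receptor, differed by 0.03 in SI (adjusted p = 0.977 in edgeR).

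Of the inducers of endothelial adhesion genes, 2 of 9 tested rose in skin and 1 of 7 in SI. *Il1b*, which encodes interleukin-1 beta, rose by 2.84 in skin (adjusted p = 0.00432 in edgeR) and by 3.16 in SI (0.00519). *Osm*, oncostatin M, rose by 2.50 in skin (0.0119 in edgeR). *Tnf* differed by 1.03 in skin (0.153) and 1.91 in SI (0.0772), without passing in edgeR. DESeq2 called 4 of the 9 inducers in skin and 2 of the 7 in SI. Over all genes tested it called 3030 of 20512 in skin and 1206 of 19965 in SI.

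Of the enzymes of selectin ligand synthesis, 2 of 10 tested rose in skin and 1 of 11 in SI. *Gcnt1*, a branching enzyme of O-glycans, rose in both tissues, by 0.60 in skin (adjusted p = 0.0482 in edgeR) and 1.70 in SI (0.0142). *B4galt1* rose by 0.59 in skin (0.0441). *Fut7*, a fucosyltransferase of selectin ligands, differed by 0.60 in skin (0.295) and 0.04 in SI (0.988), in edgeR. Of the carriers of selectin ligands, 3 of 9 rose in skin and 3 of 10 in SI. Without *Selplg* and *Spn* these were 2 of 7 in skin and 1 of 8 in SI, which included *Cd44* in both (log2 1.01 and 0.74, adjusted p = 0.0258 and 0.0276 in edgeR).

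Among 15 immunoglobulin-type and junction genes, 14 were tested in skin, of which 4 rose and 1 fell, and 4 of 15 rose in SI. Without the members, 2 of 10 rose and 1 fell in skin, and 1 of 10 rose in SI. *Alcam*, a cell adhesion molecule of many cell types, fell by 1.60 on the log2 scale (adjusted p = 0.00732 in edgeR). *Esam*, an endothelial junction gene, rose in skin (log2 0.82, 0.0359) and SI (0.96, 0.0482), in edgeR. Of the 15 pan-endothelial markers, 4 rose in skin (median 0.70) and 1 in SI (median 0.44) in edgeR, against 9 and 1 in DESeq2 and 11 and 5 at an unadjusted p of 0.05 in edgeR. Of 7 venular markers other than the members, 5 were tested in skin and 1 rose, *Vwf* (log2 1.06, adjusted p = 0.0324 in edgeR), and 0 of 6 in SI in edgeR (1 at an unadjusted p of 0.05, 0 in DESeq2). Over all genes tested, DESeq2 called 3030 of 20512 in skin and 1206 of 19965 in SI. The share of all genes at an unadjusted p of 0.05 was not counted, so the unadjusted counts are descriptions only.

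**Figure D4:**
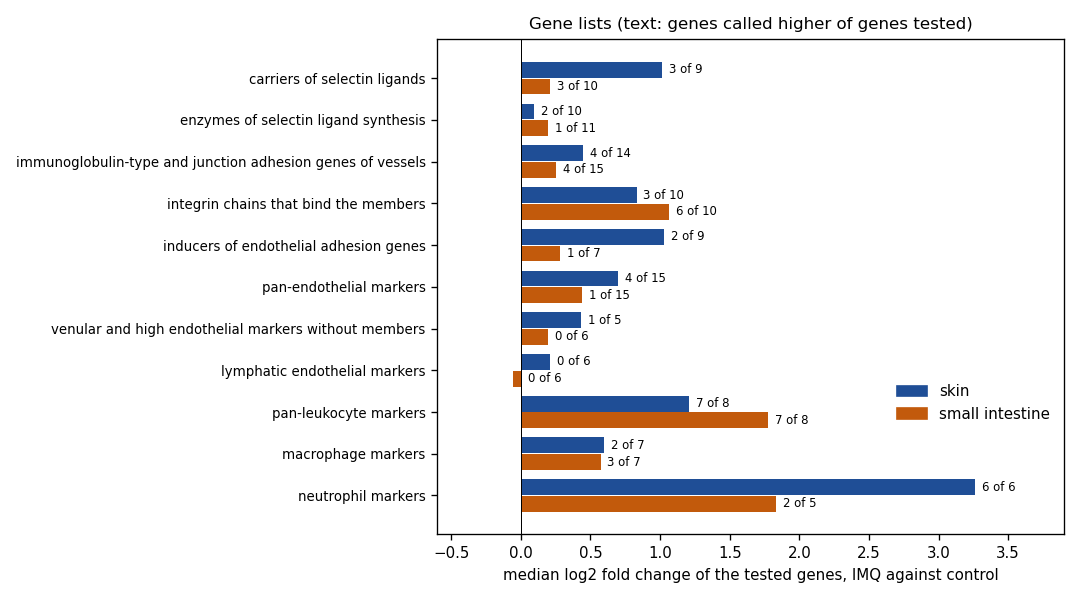
Median log2 fold change of the tested genes of 11 lists (horizontal axis), in skin and small intestine, with the number called higher of the number tested. The pan-leukocyte markers have medians of 1.21 in skin and 1.78 in small intestine, and the pan-endothelial markers 0.70 and 0.44.

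Of the other cell types, 6 of 6 tested neutrophil markers rose in skin and 2 of 5 in SI in edgeR, against 6 and 1 in DESeq2. Their summed level was 16.8 to 24.1 CPM in control and 3729 to 4692 CPM in treated skin. In SI it was 7.35 to 9.24 and 36.7 to 37.0 CPM. Most of the sum in treated skin came from *S100a9* (2259 to 2850 CPM) and *S100a8* (1359 to 1694 CPM), with *Csf3r* at 71.5 to 86.1 CPM. Which cells made them was not tested. *Csf3r*, the receptor of granulocyte colony-stimulating factor, rose in both tissues (log2 3.04 and 3.21, adjusted p = 0.000774 and 0.000486 in edgeR). In treated SI *Csf3r* made up most of the sum, at 30.7 to 31.7 CPM. *Mmp8* was the other marker called there (log2 1.83, adjusted p = 0.0425 in edgeR). It was near the floor, at 0.0712 to 0.0836 CPM in control and 0.245 to 0.320 CPM in treated SI. *S100a9* (2.24), *Cxcr2* (-0.25) and *Retnlg* (-0.07) were not called in SI, and *Ly6g* had no count in treated SI. Macrophage markers were called in 2 of 7 tests in skin and 3 of 7 in SI, where *Cd68* rose by 2.54 (0.000794 in edgeR). B cell and lymphoid follicle markers were called in 3 of 5 in skin and 0 of 8 in SI in edgeR (2 at an unadjusted p of 0.05, 2 in DESeq2). T cell markers were called in 0 of 8 in either tissue in edgeR, with 5 in skin and 1 in SI at an unadjusted p of 0.05, and 5 and 0 in DESeq2. Lymphatic endothelial markers gave 0 of 6 in either tissue in edgeR, in DESeq2 and at an unadjusted p of 0.05. Of the stromal markers, 1 of 7 rose in skin, *Rgs5* (log2 0.97), and 0 of 7 in SI in edgeR (2 at an unadjusted p of 0.05, 0 in DESeq2). Of the keratinocyte markers, 1 of 6 rose in skin, *Krt14* (log2 1.41), and of the hair follicle markers 1 of 5 fell, *Krt28* (log2 -7.11). Skeletal muscle markers gave 0 of 6 in skin and 0 of 3 in SI in edgeR, in DESeq2 and at an unadjusted p of 0.05. Intestinal epithelial markers gave 0 of 2 in skin and 0 of 10 in SI in edgeR (1 and 3 at an unadjusted p of 0.05, 1 and 0 in DESeq2). Their part in the members' changes was not tested. For comparison, DESeq2 called 3030 of all 20512 genes in skin and 1206 of 19965 in SI. The share of all genes at an unadjusted p of 0.05 was not counted.

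The 3 genes whose levels were most like those of each member were found by Pearson's r over the 11 libraries, after each tissue's mean had been removed, among 15041 genes. These coefficients are descriptions across libraries that share tissue and treatment. *Cdh5* was most like *Mmrn2* (r = 0.986), *Abi3* (0.979) and *Cd93* (0.975). *Selp* was most like *Sult4a1* (0.975), *Crmp1* (0.968) and *Trpc6* (0.960). *Icam1* was most like *Irak3* (0.991) and *Gatm* (0.986). *Pecam1* was most like *Lcp2* (0.991), *Fcgr4* (0.990) and *Lrrc25* (0.990), and *Selplg* like *I830077J02Rik* (0.994), *Sash3* (0.990) and *Fmnl1* (0.988). *Spn* was most like *Stap1* (0.993), *Tnfrsf1b* (0.988) and *Tnfsf13b* (0.988). For *Sele* they were *Alox5ap* (0.952), *Psap* (0.944) and *AU021092* (0.943), for *Vcam1* *Tmem165* (0.954), *Ercc1* (0.939) and *Slfn1* (0.938), and for *Madcam1*, which had the weakest likeness, *Cxcl14* (0.859), *Clcc1* (0.857) and *Gata6* (0.851). Within the members, *Selplg* and *Pecam1* had the highest r (0.972), and *Selp* and *Madcam1* the lowest (-0.52).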

How the data were processed

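RNA of skin and small intestine from vehicle- and IMQ-treated mice was sequenced in 11 libraries. After trimming, the authors used HISAT v2.1.0 for alignment to mm10 and StringTie v2.1.3b for abundance. They deposited read counts, without normalization, for each gene. The FPKM in the same deposited table are scaled by transcript length and library size, and the TPM deposited beside them were not tested. The submitters' processing notes also list bcl2fastq 2.20.0 and Trimmomatic. The tool that wrote the counts and its handling of strand are not given in the sources used here. *Gm16548* overlaps *Selp* and had 18 counts over all libraries, and *Gm29682* overlaps *Cdh5* and had 0.

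Genes without a 0 in any library compared (minimum count 1) were normalized by relative log expression and tested, tissue by tissue, with edgeR 4.0.16 (quasi-likelihood) in R 4.3.3. The threshold was a Benjamini-Hochberg adjusted p of 0.05. The study used the Wald test of DESeq2 and describes adding 1 to each count for a log2 transformation. DESeq2 1.42.0 was run here as an alternative, on the counts as deposited. The standard error is the log2 fold change divided by the square root of F. Interaction and control tissues were tested in a model of all 11 libraries. Exact permutation tests used Python 3.11.15 with scipy 1.17.1. The test was also run on simulated counts with a fixed spread between libraries and changes larger than those of most members. The outcome is not given here, so it lends no support to the results.

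Alternatives were TMM, DESeq2, filterByExpr, no filter, limma 3.58.1 on log2(FPKM + 0.01) and log2(FPKM + 1), a fit of all 11 libraries, the median of the marker list, and each library left out. Libraries had 44995414 to 58526384 counts, so depth limits only genes with few counts, such as *Sele* in SI and *Madcam1* in skin. Nothing says that the libraries of a group came from separate mice, in which case p-values measure only the spread between them. The 9 members and the 20 lists were chosen with earlier results of these data known. Named genes are the members, up to 5 called genes per list and tissue, and the 3 most alike genes with a mean count of at least 50 (log2 CPM, prior count 1). *Itgb7*, *Tnf*, *Fut7*, *Itga4*, *Gp6*, *Retnlg* and *Ly6g* were named outside this rule, after their values had been seen. Some genes that this rule would name are not reported here.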

Additional observations from a re-analysis of the deposited data

Results flagged for a closer look

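The response to IMQ differed between the tissues for 2 members, by the interaction test of edgeR. *Selp* rose more in skin than in SI, with an interaction of -2.28 (log2, SI minus skin, adjusted p = 0.0463 in edgeR). *Icam1* rose more in SI, with an interaction of 1.12 (adjusted p = 0.0280 in edgeR). Both calls were close to the threshold, and each was lost in most of the fits with a library left out. Without a filter neither passed, with adjusted p of 0.0722 for *Selp* and 0.0523 for *Icam1* in edgeR. *Madcam1* lay higher in both IMQ-treated SI libraries and lower in all 3 IMQ-treated skin libraries than in the controls of the same tissue. The main test could not include *Madcam1*, and without a filter its interaction was 2.95 with an adjusted p of 0.125 in edgeR, so the difference is a description from few counts in skin.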

How the results depend on the processing

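The Wald test of DESeq2 called 3030 genes in skin against 1382 in edgeR, 1206 against 588 in SI, and 1281 against 462 for the interaction, and it called 8 members in skin against 5. Limma on log2(FPKM + 1) called 894 genes in skin and 3 members in SI. For the interaction, filterByExpr called 1 member of the 2, and no filter called 301 genes and 0 members in edgeR. DESeq2 called 2 members. Without a filter, 5 members had an unadjusted p under 0.05 in edgeR. The share of all genes under that unadjusted p was not counted, here or for the lists. With each library left out in turn, skin gave 258 to 2521 genes and 2 to 7 members, SI 294 to 801 genes and 3 to 5 members, the interaction 144 to 1072 genes and 0 to 2 members, and control SI against control skin 2 to 5 members.

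Direction turned only for differences that were not called. *Selp* in SI gave -0.087 and -0.00062 with limma on log2(FPKM + 0.01) and log2(FPKM + 1), and -0.78 to 0.62 with a library left out. The interaction of *Cdh5* ranged from -0.27 to 0.090, and *Spn* in control SI against control skin from -0.33 to 0.25. Per endothelial level, *Icam1* in skin was -0.070 with the median of the list and -0.088 to 0.075 with a library left out, and *Selp* in SI -1.16 to 0.058. *Selplg* per leukocyte level in SI was -0.10 to 0.032. The causes were not tested. Of 408 alternative values of single members, 335 kept direction and side of the threshold, 50 lost the call, 13 gained it and 10 turned. Depth limits *Sele* in SI and *Madcam1* in skin. No paired analysis was possible because the groups compared share no replicate number.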
